A study of Homo sapiens with 9 samples.

Results

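The zinc finger genes of chromosome 19 were followed in K562 cells: protein-coding genes of that chromosome whose symbol is ZNF and a number. Of the annotated genes that fit this rule, 247 had a row in the count tables, among 63677 gene IDs in all, and 2 (ZNF229 and ZNF8) had no matching ID. Of these 247, 155 had a mean of at least 1 CPM over the 9 libraries and are described here in genome order, by group and by clone. Levels are given in CPM, a read count divided by the library total that TMM scaling had adjusted. The 92 other members stayed under that limit, and 9 of them had no read in any library. Of the 155, 51 lie on the short arm and 104 on the long arm.

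Arrays of C2H2 zinc fingers read DNA, and the tandem duplication of such genes built the large clusters of chromosome 19. Most of the encoded proteins join their fingers to a KRAB box, which recruits the corepressor TRIM28 and, through it, the methyltransferase SETDB1, heterochromatin proteins of the CBX family and histone deacetylases. Many of the proteins bind and silence transposable elements, and ZNF274 binds the coding ends of zinc finger genes themselves.

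K562 is an erythroleukaemia line derived from chronic myeloid leukaemia. The groups were 4 CRISPR clones with the P95H substitution in the splicing factor SRSF2 (P9, P15, P22 and P38), the parental line with wild-type SRSF2 (1 library) and 4 CRISPR clones with wild-type SRSF2 (W19, W33, W36 and W42). Each clone is 1 library of polyadenylated RNA, so p-values measure the spread between these clones, and neither the number of alleles with P95H nor the origin of the clones in separate edits is stated by the labels. The series asked how the mutation alters splicing, whereas the counts used here give only the level of each gene.

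Reads counted in genes numbered 24546255 (W33) to 35477328 (parental), and 3 counts, taken as the floor, equalled 0.0865 to 0.133 CPM, a limit for counting error only. SRSF2 averaged 498.9 ± 62.0 CPM in P95H clones and 489.0 ± 27.7 CPM in WT clones (SD, n = 4 each). The fetal and embryonic globins, GATA1, KLF1 and TAL1, used as markers of K562 identity, were detected in every library. The 12 markers of other cell types summed to 6.34 to 11.8 CPM in P95H clones and 8.13 to 21.0 CPM in WT clones, and MS4A1 and KRT5 were at 0 in every library. Clone W33 stood apart: in it, genes of high GC content were higher and genes of low GC content lower than in the other WT clones, so results are also given without it.

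The promoters of 5 members are printed because the results below turn on these genes. ZNF304 and ZNF226 had the largest edgeR differences between P95H and WT clones among members whose groups did not overlap, ZNF226 just ahead of ZNF543, ZNF587 and ZNF587B are close copies that differed in opposite directions, and ZNF626 was near 0 in some clones and expressed in others. Each sequence runs from 250 bases before to 50 bases after the RefSeq gene start (GRCh38.p14), on the gene's strand, with CpG dinucleotides in capitals. The ZNF304 window (chr19:57351021-57351320, plus strand) has 20 CpGs, that of ZNF226 (chr19:44164850-44165149, plus strand) 14, that of ZNF587 (chr19:57849609-57849908, plus strand) 12, that of ZNF587B (chr19:57830049-57830348, plus strand) 11 and that of ZNF626 (chr19:20661522-20661821, minus strand) 8.
ZNF304: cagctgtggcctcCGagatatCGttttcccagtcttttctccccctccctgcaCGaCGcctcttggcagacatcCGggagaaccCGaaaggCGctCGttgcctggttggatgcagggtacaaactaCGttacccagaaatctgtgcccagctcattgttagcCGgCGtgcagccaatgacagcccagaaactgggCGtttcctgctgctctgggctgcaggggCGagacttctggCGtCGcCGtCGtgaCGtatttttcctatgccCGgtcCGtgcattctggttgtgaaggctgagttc
ZNF226: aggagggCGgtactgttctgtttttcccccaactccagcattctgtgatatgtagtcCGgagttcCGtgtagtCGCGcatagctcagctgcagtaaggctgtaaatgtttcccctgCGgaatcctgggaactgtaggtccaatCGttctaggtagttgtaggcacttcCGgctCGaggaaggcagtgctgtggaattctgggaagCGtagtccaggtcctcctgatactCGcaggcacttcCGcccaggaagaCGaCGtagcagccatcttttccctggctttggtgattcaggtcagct
ZNF587: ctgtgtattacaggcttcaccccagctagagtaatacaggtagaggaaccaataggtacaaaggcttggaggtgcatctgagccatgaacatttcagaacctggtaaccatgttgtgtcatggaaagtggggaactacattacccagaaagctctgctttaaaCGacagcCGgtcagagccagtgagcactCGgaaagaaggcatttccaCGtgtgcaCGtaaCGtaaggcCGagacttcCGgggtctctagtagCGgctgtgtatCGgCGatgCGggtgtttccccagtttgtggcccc
ZNF587B: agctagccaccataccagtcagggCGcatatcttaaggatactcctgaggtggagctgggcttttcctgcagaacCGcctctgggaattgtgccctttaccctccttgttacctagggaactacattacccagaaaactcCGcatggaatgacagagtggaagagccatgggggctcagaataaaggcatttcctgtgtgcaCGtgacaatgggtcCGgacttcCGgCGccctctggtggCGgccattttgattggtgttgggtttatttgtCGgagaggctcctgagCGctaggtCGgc
ZNF626: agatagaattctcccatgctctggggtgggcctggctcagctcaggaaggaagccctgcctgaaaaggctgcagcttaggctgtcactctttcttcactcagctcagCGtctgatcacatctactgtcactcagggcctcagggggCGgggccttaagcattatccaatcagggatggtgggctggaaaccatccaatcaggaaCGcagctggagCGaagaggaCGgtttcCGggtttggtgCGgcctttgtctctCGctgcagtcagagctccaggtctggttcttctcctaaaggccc

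The RefSeq table held a promoter for 215 of the 247 members. The median promoter had 21 CpGs among 140 described members, 17 among 75 members under 1 CPM and 13 among all 27305 promoters of the table. The ETS motif CCGGAAG, searched on both strands, was present in 42.1% of described members' promoters, against 10.6% of all promoters. It was also present in 46.7% of the promoters of members under 1 CPM. The YY1 motif GCCATNTT was found in 15.7% of described members' promoters, against 6.78% of all, the ZNF143 core ACTACAA in 7.14%, against 2.92%, and the SP1 motif GGGCGG in 65%, against 43.8%. None of the 4 motifs contains another. Of the printed windows, those of ZNF226, ZNF587 and ZNF587B hold the ETS motif, and that of ZNF304 holds none of the 4. A match here is a match of letters only.

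Levels of the described members differed widely. In these bulk libraries, fewer expressing cells and less RNA per cell cannot be told apart. ZNF146, which encodes a protein made almost wholly of fingers, was highest with a mean of 200.7 CPM over the 9 libraries, followed by ZNF83 (88.3 CPM), ZNF121 (87.4 CPM), ZNF587 (59.9 CPM) and ZNF266 (56.4 CPM). The median member had 8.89 CPM. Per kb of annotated exon, ZNF146 was again highest at 48.4 CPM per kb, and the median was 1.96 CPM per kb. The lowest members inside the limit were ZNF541, a gene of germ cells (1.10 CPM), ZNF805 (1.14 CPM), ZNF93, a repressor of LINE-1 elements (1.19 CPM), ZNF491 (1.204 CPM) and ZNF665 (1.24 CPM). Just outside it lay ZNF222 (0.987 CPM), ZNF585A (0.935 CPM) and ZNF91, a repressor of SVA elements (0.916 CPM).

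Between libraries, 146 to 161 members reached 1 CPM. Summed over all members, the level was 2532 to 2778 CPM in P95H clones, 2351 CPM in the parental line and 2138 to 2532 CPM in WT clones. The top of the WT range, W42, and the bottom of the P95H range, P15, had the same rounded sum. The proteins of the described members held 1 to 29 C2H2 fingers by a pattern search, with a median of 12. A KRAB pattern was found in 118 of the 155 and not in 37. The pattern is incomplete, since it missed ZNF257 and ZNF808, which are known KRAB genes. Members with the pattern had a median of 13 fingers and a median transcript GC content of 42.2%, and those without it 9 fingers and 58.8%.

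Placed in genome order, the described members fell into 16 runs, in which neighbours have at most 20 other protein-coding genes between them. Of the 155, 136 lie in 7 runs of at least 10 members. The last run, ZNF628 to ZNF446 at the end of the long arm, is the largest with 42 described members of 58, and its highest member per kb of exon was ZNF581 (20.3 CPM per kb). Next are the run from ZNF175 to ZNF813 with 26 of 39 (highest ZNF83, 11.0 CPM per kb), the run from ZNF101 to ZNF254 on the short arm with 19 of 37 (highest ZNF100, 4.66 CPM per kb) and the run from ZNF653 to ZNF791 with 15 of 26 (highest ZNF700, 9.55 CPM per kb). The run from ZNF565 to ZNF573 and the run from ZNF575 to ZNF296, which holds ZNF226, have 12 each (highest per kb ZNF146, given above, and ZNF428, with 26.8 CPM per kb). The run from ZNF414 to ZNF846 has 10 (highest ZNF121, 12.1 CPM per kb).

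**Figure D1:**
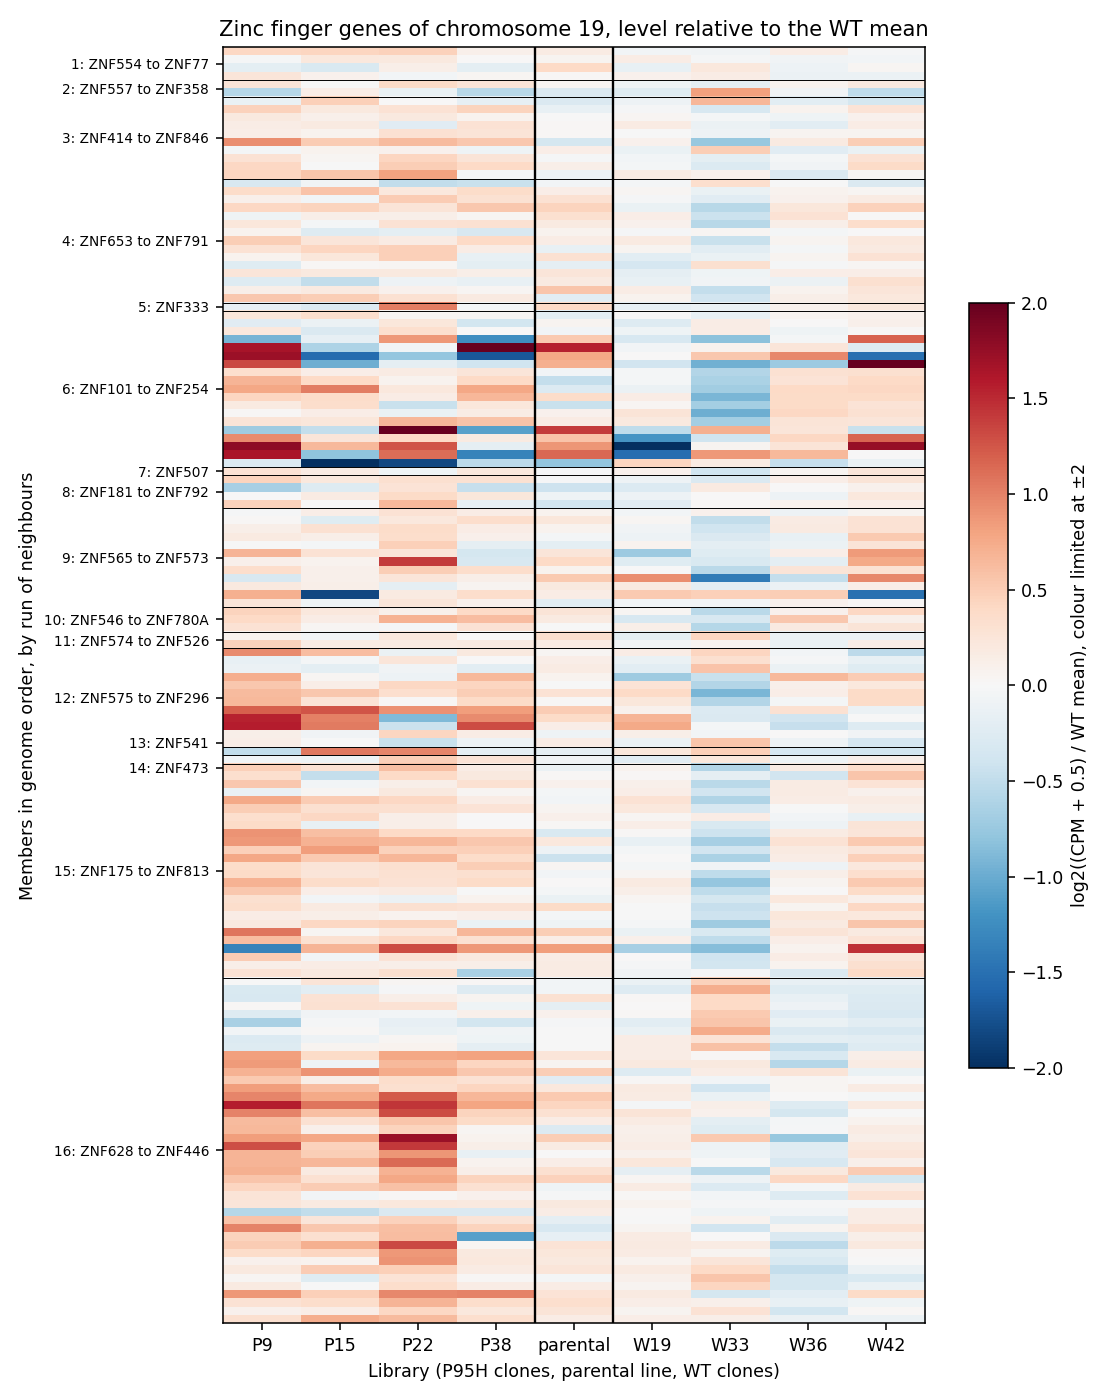
Level of the 155 described members, in genome order from the short arm (top) to the end of the long arm (bottom), in each library as log2((CPM + 0.5) / WT mean), with lines between the 16 runs and between P95H clones, parental line and WT clones. Red prevails in the P95H columns of run 16, whose members had a median log2 difference of 0.44, W33 is blue in many rows of runs 6, 12 and 15, and single strong red or blue cells mark members near 0 in some libraries.

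Most described members had a small positive log2 difference between P95H and WT clones, and no single member passed the main test. Of 154 members tested, 129 (83.8%) had a log2 difference above 0, against 52.1% of all 18173 genes tested and 51.7% of those of at least 1 CPM. Their median log2 difference was 0.24, with quartiles of 0.08 and 0.45, against a median of 0.01 for all genes tested. The 202 ZNF genes of other chromosomes had a median of 0.09, and 742 other protein-coding genes of chromosome 19 one of -0.16, with 26.4% above 0. Members with the KRAB pattern had a median of 0.29, with 104 of 118 above 0, and members without it 0.08, with 25 of 36 above 0; no test of the difference between these sets was run.

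The edgeR quasi-likelihood test with Benjamini-Hochberg adjustment over all genes called 0 members higher or lower at an adjusted p under 0.05, as it called 0% of all genes. At an unadjusted p under 0.05, 36 members were higher and 2 lower, against 6.07% higher and 5.65% lower of all genes tested. DESeq2 called 8 members higher and 1 lower (0.814% and 0.622% of all genes), and limma-voom with quality weights called 2 higher and 0 lower (0.209% and 0.116% of all genes). The 2 were ZNF304 and ZNF226.

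In 27 members all 4 P95H clones lay above all 4 WT clones, and in 1 all lay below, which is 17.5% and 0.649% of the 154 tested. The background was 3.94% of all genes higher and 4.63% lower, or 4.05% and 4.84% of the genes of at least 1 CPM. Among the 82 members that share few sequence words with other genes and overlap no gene of the other strand, a set chosen after seeing the data, 15 were higher without overlap and 0 lower. With 1 clone left out, the count of higher members was largest without W42, at 42 higher and 2 lower (27.1% and 1.29%). The background was then 6.77% and 7.99% of the genes of at least 1 CPM. Without P38 the counts were 41 and 1 (26.6% and 0.649%), against 7.16% and 8.20%. With any other clone left out, 27 to 37 were higher and 1 to 3 lower (17.4 to 23.9% and 0.645 to 1.95%). The background was then 4.84 to 7.34% and 5.52 to 7.86%.

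By clone, the median of the described members' log2 CPM above the WT mean was 0.35, 0.19, 0.32 and 0.16 in P9, P15, P22 and P38. It was 0.09 in the parental line, and 0.03, -0.13, -0.01 and 0.17 in W19, W33, W36 and W42. W42 therefore lay above P38, so the groups overlapped on this summary. With the trend over GC content and transcript length removed, an alternative chosen after seeing the data, the medians were 0.28, 0.19, 0.30 and 0.17 in P9, P15, P22 and P38, against 0.01, -0.01, -0.02 and 0.07 in W19, W33, W36 and W42. On that scale the P95H clones all lay above the WT clones and above the parental line at 0.08.

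**Figure D2:**
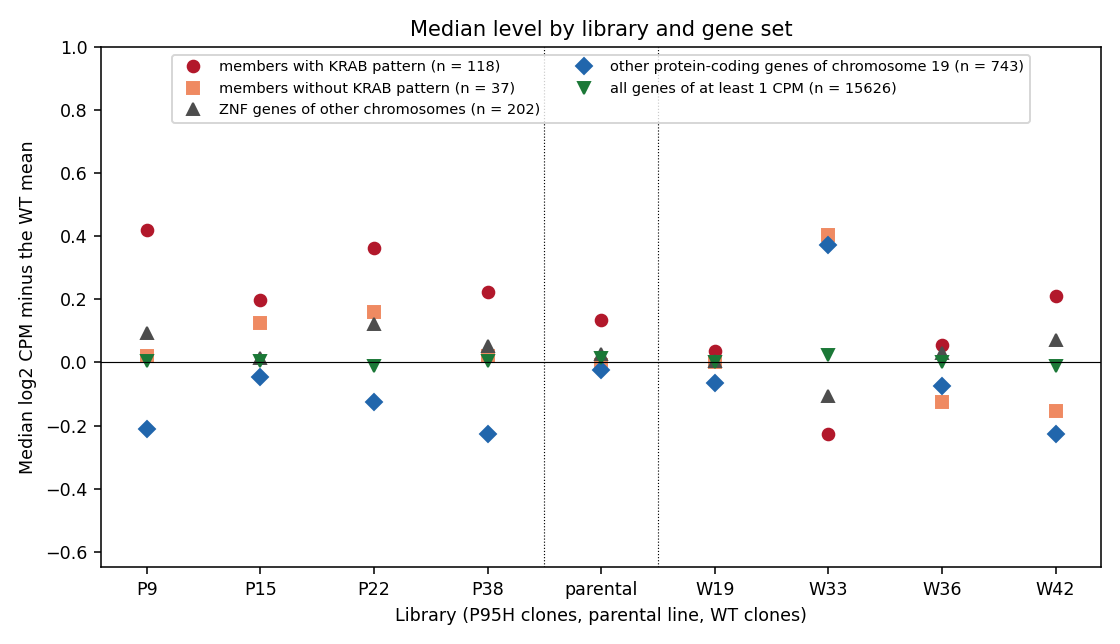
Median over genes of log2 CPM minus the WT mean (vertical axis) in each library, for members with and without the KRAB pattern, ZNF genes of other chromosomes, other protein-coding genes of chromosome 19 and all genes of at least 1 CPM. Members with the KRAB pattern lie at 0.20 to 0.42 in P95H clones and at -0.23 to 0.21 in WT clones, and in W33 they and the other chromosome 19 genes part in opposite directions.

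Members have a lower GC content than most genes of their chromosome, and GC content went with the difference between the groups. Among transcripts of 40 to 45% GC, 63 members had a median log2 difference of 0.32 between P95H and WT clones, against 0.04 for 2318 other protein-coding genes. Above 60% GC, 17 members had a median of 0.01, against -0.13 for 1753 other genes. The members' median was above that of the other genes in each of the 6 GC classes. Removing the trend over GC content and length left a median of 0.21 for the members, with 84.4% above 0, against 0.05 for ZNF genes of other chromosomes and -0.09 for the other genes of chromosome 19. Without W33 the median was 0.19 for the members and -0.03 for those other genes.

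**Figure D3:**
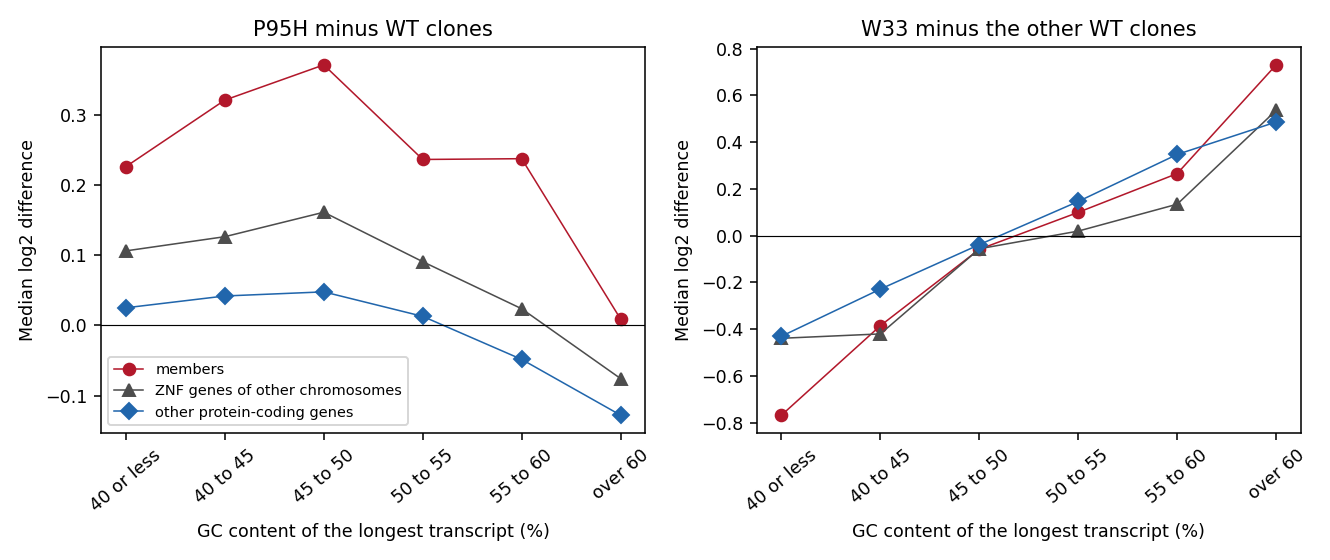
Median log2 difference (vertical axis) by GC class of the transcript for described members, ZNF genes of other chromosomes and other protein-coding genes, between P95H and WT clones (left) and between W33 and the other WT clones (right). On the left the members lie above the other genes in every class, and on the right all 3 sets climb with GC, the members from -0.77 to 0.73.

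ZNF304, a KRAB protein described as a recruiter of corepressors to the CDKN2A locus in other cells, had the largest difference among members whose groups did not overlap. It had 11.1, 7.75, 10.03 and 6.31 CPM in P9, P15, P22 and P38, 4.78 CPM in the parental line, and 3.31, 3.78, 2.79 and 3.94 CPM in W19, W33, W36 and W42. All P95H clones lay above the parental line, and the parental line above all WT clones. Its log2 difference between P95H and WT clones was 1.36 (SE 0.22), with an adjusted p of 0.220 by edgeR, 1.74e-05 by DESeq2 and 0.0283 by limma-voom. Part of its exon sequence is shared with an annotated gene of the other strand, whose reads cannot be told apart from its own.

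ZNF226, a KRAB protein with 17 fingers, had 6.43, 6.70, 5.16 and 4.91 CPM in P9, P15, P22 and P38, 3.80 CPM in the parental line, and 2.69, 2.001, 3.24 and 2.28 CPM in W19, W33, W36 and W42. The order was the same as for ZNF304, with the parental line between groups that did not overlap. The log2 difference was 1.19 (SE 0.21), with an adjusted p of 0.220 by edgeR, 0.000136 by DESeq2 and 0.0495 by limma-voom. Leaving out 1 clone at a time kept the log2 difference of ZNF226 at 1.08 to 1.31 and that of ZNF304 at 1.22 to 1.49.

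The run that holds ZNF226 had a median log2 difference of 0.37, and 1 of its 12 described members, ZNF226 itself, was without overlap. ZNF227, the next member, had 7.003, 4.69, 0.895 and 4.45 CPM in P9, P15, P22 and P38, and 3.60, 1.6, 1.47 and 2.06 CPM in W19, W33, W36 and W42. ZNF235, which overlaps ZNF227 on the other strand, had 5.09, 3.37, 0.895 and 4.15 CPM in the P95H clones, and 2.66, 1.33, 0.865 and 1.07 CPM in the WT clones. In both, P9, P15 and P38 lay above every WT clone, while P22 lay below all WT clones for ZNF227 and below 3 of the 4 for ZNF235.

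The members most like ZNF304 over the 9 libraries, by Pearson correlation of log2 CPM, were ZNF548 (r = 0.932), ZNF543 (0.925) and ZNF582 (0.901), all from its own run. Those most like ZNF226 were ZNF627 (0.939), ZNF554 (0.905) and ZNF543 (0.900), from 3 other runs. These values describe likeness over libraries that include both groups, and no test was made.

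The run at the end of the long arm held 17 of the 28 members without overlap, 16 higher and 1 lower, among its 42. The background was 4.05% higher and 4.84% lower of all genes of at least 1 CPM. The members of this run had a median log2 difference of 0.44 between P95H and WT clones. The median was -0.03 for the 14 other protein-coding genes lying among them. ZNF543 had 2.79, 2.35, 3.43 and 2.16 CPM in P9, P15, P22 and P38, 1.90 CPM in the parental line, and 1.38, 1.02, 1.19 and 1.14 CPM in W19, W33, W36 and W42. Its log2 difference was 1.19 (SE 0.23; edgeR adjusted p 0.256). ZNF548 had 4.02, 2.93, 5.13 and 2.59 CPM in the P95H clones, 2.31 CPM in the parental line, and 2.22, 1.91, 1.28 and 1.77 CPM in the WT clones. The groups of ZNF548 were close, since P38 at 2.59 stood just above W19 at 2.22 CPM, and the log2 difference was 1.04 (SE 0.28; edgeR adjusted p 0.300).

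ZNF132, often silenced by promoter methylation in carcinomas, had 9.84, 7.41, 10.5 and 10.9 CPM in P9, P15, P22 and P38, 6.37 CPM in the parental line, and 5.93, 3.96, 4.39 and 6.91 CPM in W19, W33, W36 and W42 (log2 0.87, SE 0.22). ZNF582, a methylation marker of cervical cancer, had 3.29, 2.32, 3.16 and 3.25 CPM in the P95H clones, 2.05 CPM in the parental line, and 1.89, 1.69, 1.25 and 1.84 CPM in the WT clones (log2 0.86, SE 0.22). Both had the parental line and the WT clones below every P95H clone. ZNF71 had 4.71, 5.53, 4.89 and 4.18 CPM in the P95H clones, 4.03 CPM in the parental line, and 2.18, 3.07, 3.33 and 2.43 CPM in the WT clones (log2 0.82, SE 0.20). ZNF460 had 2.95, 2.44, 1.91 and 2.09 CPM in the P95H clones, 1.73 CPM in the parental line, and 1.67, 0.978, 1.47 and 1.66 CPM in the WT clones (log2 0.70, SE 0.25). For ZNF71 the parental line was close to the lowest P95H clone, and ZNF460 shares exon bases with a gene of the other strand. The edgeR adjusted p was 0.293 for ZNF132, 0.298 for ZNF582, 0.286 for ZNF71 and 0.351 for ZNF460.

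ZNF587, which with its copy ZNF417 is known to repress endogenous retroviruses, had 95.8, 70.0, 73.7 and 66.0 CPM in P9, P15, P22 and P38, 38.3 CPM in the parental line, and 49.8, 36.9, 49.8 and 58.8 CPM in W19, W33, W36 and W42. Its log2 difference was 0.65 (SE 0.17; edgeR adjusted p 0.295). ZNF587B, its close copy, was the only described member with all P95H clones below all WT clones. It had 26.2, 27.4, 31.7 and 31.8 CPM in P9, P15, P22 and P38, 43.3 CPM in the parental line, and 39.2, 36.6, 37.3 and 43.0 CPM in W19, W33, W36 and W42. Its log2 difference was -0.41 (SE 0.12; edgeR adjusted p 0.319).

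Of the ZNF587 transcript's 50-base words, 35.5% also occur in another gene, as do 24.1% of those of ZNF587B, and reads that align to several places were not counted, so the split between them is less certain. ZNF587 also overlaps ZNF814 on the other strand. The summed level of the pair was 97.4 to 122 CPM in P95H clones, 81.6 CPM in the parental line and 73.5 to 101.8 CPM in WT clones, and these ranges overlapped. The share of ZNF587 in that sum was 78.5, 71.8, 70.0 and 67.5% in P9, P15, P22 and P38, 47.0% in the parental line, and 56.0, 50.2, 57.2 and 57.8% in W19, W33, W36 and W42. The share was higher in every P95H clone than in any other library. This follows from the levels of both genes given above, which were named because their groups did not overlap, and is not a further result.

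ZNF274, which binds other zinc finger genes and brings SETDB1 to them, lies in the same run. It had 38.3, 40.01, 53.9 and 33.7 CPM in P9, P15, P22 and P38, 34.4 CPM in the parental line, and 32.95, 30.8, 24.7 and 30.0 CPM in W19, W33, W36 and W42. Its lowest P95H clone was close to the highest WT clone, and the parental line lay inside the P95H range. The log2 difference was 0.50 (SE 0.16; edgeR adjusted p 0.336), and 0.33 to 0.59 with 1 clone left out.

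Of the 26 described members in the run from ZNF175 to ZNF813, 6 were without overlap, all higher. The background was 4.05% higher and 4.84% lower of all genes of at least 1 CPM. This run had a median log2 difference of 0.28. Within it, ZNF701 had 8.99, 7.93, 7.79 and 7.04 CPM in P9, P15, P22 and P38, 5.53 CPM in the parental line, and 4.18, 2.80, 5.86 and 6.95 CPM in W19, W33, W36 and W42 (log2 0.68, SE 0.27; edgeR adjusted p 0.375). P38 exceeded W42 by less than 0.1 CPM, so the gap between groups was narrow. ZNF808, which is known to repress MER11 elements and is needed for pancreas development, had 12.3, 10, 8.54 and 8.56 CPM in the P95H clones, 5.04 CPM in the parental line, and 6.47, 4.67, 7.18 and 7.61 CPM in the WT clones (log2 0.61, SE 0.20; edgeR adjusted p 0.337). ZNF701 and ZNF808 overlap each other on the same strand, and over 20% of the words of each occur in another gene. In the same run ZNF83, the second highest member, had 100.8, 130.1, 100.3 and 101.1 CPM in the P95H clones, and 70.5, 55.3, 82.7 and 86.2 CPM in the WT clones (log2 0.56, SE 0.16; edgeR adjusted p 0.318).

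Outside these runs, 5 of 87 described members were without overlap, all higher, against a background of 4.05% higher and 4.84% lower. This count is near the background, so it does not set the members outside these runs apart. The 5 were ZNF226, ZNF426 and ZNF266 and, with smaller differences, ZNF627 and ZNF526. ZNF426, on the short arm, had 9.30, 6.79, 7.49 and 7.004 CPM in P9, P15, P22 and P38, 3.55 CPM in the parental line, and 4.95, 2.53, 5.35 and 6.73 CPM in W19, W33, W36 and W42 (log2 0.65, SE 0.27; edgeR adjusted p 0.409). P15 and W42 of ZNF426 were nearly level. The 15 higher members without overlap that come after the 12 with the largest differences had log2 differences of 0.21 to 0.56 and edgeR adjusted p-values of 0.318 to 0.460.

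**Figure D4:**
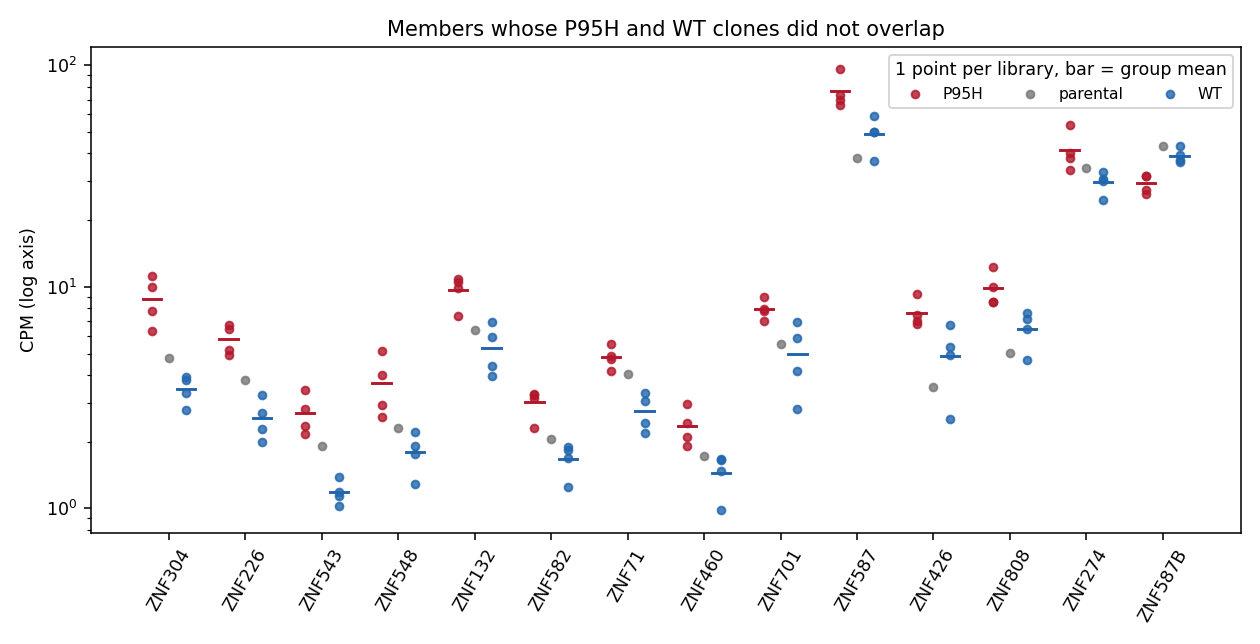
CPM (log axis) of the 12 higher members with the largest difference, ZNF274 and ZNF587B in each library, with P95H clones left, parental line in the middle and WT clones right, and a bar at the mean of each clone group. ZNF304 averaged 8.81 CPM in P95H clones and 3.45 CPM in WT clones, and ZNF587B 29.3 CPM in P95H clones and 39.0 CPM in WT clones.

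None of the matched partners through which KRAB proteins act passed the edgeR test. That test called 0% of all genes, so this result does not set the partners apart. Of 23 corepressor genes listed, 22 were matched and 0 were called by edgeR, with 11 above 0 and a median log2 difference of -0.002 between P95H and WT clones. TRIM28, the KRAB-binding corepressor, averaged 682.4 ± 13.04 CPM in P95H clones and 688.1 ± 212.3 CPM in WT clones (SD, n = 4 each), with 997.7 CPM in W33. CBX5, heterochromatin protein HP1 alpha, had 178.0, 161.4, 171.5 and 137.2 CPM in P9, P15, P22 and P38, against 115.2, 128.2, 130.5 and 120.8 CPM in W19, W33, W36 and W42. CBX5 was the 1 gene of the 22 with all P95H clones above all WT clones (log2 0.40, SE 0.11; edgeR adjusted p 0.312). HDAC2, a histone deacetylase, was the 1 gene with all P95H clones below all WT clones, at 225.1 ± 21.3 CPM in P95H clones and 270.8 ± 17.2 CPM in WT clones (SD, n = 4 each; log2 -0.26; edgeR adjusted p 0.398). A count of 1 in each direction among 22 is near the background of 4.05% higher and 4.84% lower.

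Some members were near 0 in certain clones and expressed in others, in no order that followed the groups. Chosen with their values in view were the members whose highest library was at least 8-fold above the lowest, with libraries under the floor set to the floor. In all, 11 of the 155 met it (7.10%), against 3.85% of all genes of at least 1 CPM. These shares are not matched for level, since the median was 8.89 CPM for the members and 21.5 CPM for all those genes. A gene near 0 in most libraries passes the limit of 1 CPM only through the libraries where it is high. For such genes a wide range is partly built into the choice. Of these 11, 7 lie in the short-arm run from ZNF101 to ZNF254, which is 36.8% of its 19 described members, against 2.94% of the 136 elsewhere. That run had 0 members without overlap between P95H and WT clones. The promoters of the 11, 10 of which are in the RefSeq table, had a median of 14.5 CpGs, against 22 for the 130 other described members in the table. They were not compared with the promoters of other members of the run from ZNF101 to ZNF254, where 7 of the 11 lie.

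ZNF626, whose promoter is printed above, had 4.82 CPM in P9 and 0 CPM in P38, with 0.0617 CPM in P15 and 0.448 CPM in P22. In the parental line it had 2.28 CPM, and in WT clones 1.13, 1.87, 2.66 and 0.0736 CPM (W19, W33, W36 and W42). P15, P38 and W42 were thus under the floor of 3 counts, in clones of both groups. ZNF257 reached 5.58 CPM in P22, against 0.191, 0.309 and 0.0332 CPM in P9, P15 and P38, 2.48 CPM in the parental line, and 0.291 to 1.33 CPM in WT clones. ZNF85 stood at 5.33 CPM in W42 and 3.02 CPM in P9, against at most 0.746 CPM in the 6 other clones and 1.79 CPM in the parental line. ZNF93 had 4.61 CPM in P38, 2.18 CPM in P9 and 2.02 CPM in the parental line, against at most 0.513 CPM in the 6 other clones. Its log2 difference between P95H and WT clones, 2.28 (SE 0.99; edgeR adjusted p 0.414), was the largest of all described members, but its groups overlapped. In each of these members the parental line had an intermediate level.

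ZNF681 was the most abundant of them, with 15.1, 6.54, 10.3 and 3.49 CPM in P9, P15, P22 and P38, 7.78 CPM in the parental line, and 0.582, 4.18, 4.90 and 14.7 CPM in W19, W33, W36 and W42. Its neighbours were also lowest in W19: ZNF726 had 0.255 CPM there, against 6.24 CPM in P9, and ZNF675 had 4.07 CPM there, against 22.9 CPM in W42. ZNF253 ran from 0.764 CPM in P38 to 6.29 CPM in W42. Outside the run, ZNF607 had 0.710 CPM in P15 and 1.03 CPM in W42, against 4.27 to 6.51 CPM in the 7 other libraries. ZNF569 had 0.222 CPM in W33, against 3.20 CPM in W42, ZNF525 had 0.115 CPM in P9, against 3.75 CPM in W42, and ZNF419 had 0.288 CPM in W36, against 3.91 CPM in P22. The lowest library was not the same one throughout. Of the 11, ZNF253, ZNF93, ZNF726 and ZNF569 share exon bases with a gene of the other strand.

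**Figure D5:**
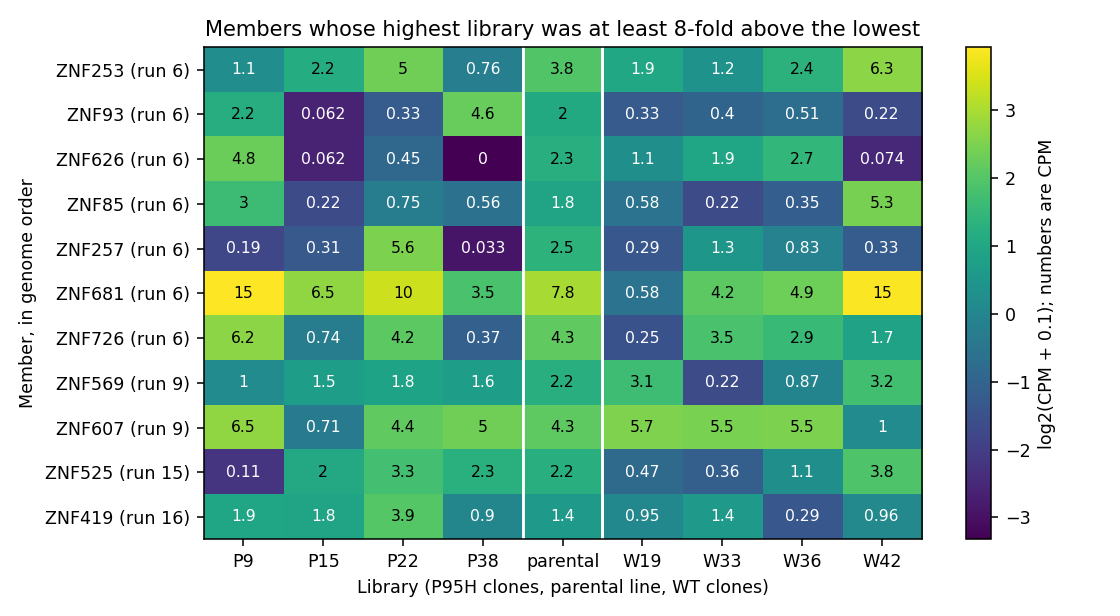
CPM of the 11 members with at least an 8-fold range, in genome order down the page, in P95H clones, parental line and WT clones, with colour as log2(CPM + 0.1). ZNF626 is at 0 in P38 and at 4.8 in P9, and ZNF257 is at 5.6 in P22, while the parental line lies between the extremes in every row.

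The parental line was set against the same WT clones in a fit of all 9 libraries, so this comparison shares its WT libraries with the one above. edgeR called 0 members in either direction, against 0.00485% of all 20636 genes tested. At 4.78 CPM for ZNF304 and 3.80 CPM for ZNF226, the parental line lay above the WT clones in both.

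Each clone was also compared with the other 3 of its group, a fit that takes the spread of the single library from that of the other clones. W33 was the only clone with members called: by edgeR with adjustment over all genes, 6 rose and 12 fell of 155, against 5.67% of all genes higher and 5.21% lower. The members' share, 11.6%, was near that of all genes, 10.9%. The 4 that rose most lack a KRAB pattern: ZNF358 (log2 1.13, SE 0.30, adjusted p 0.0489), ZNF579 (log2 1.001, SE 0.16, adjusted p 0.0159), ZNF581 (log2 0.995, SE 0.13, adjusted p 0.0153) and ZNF428 (log2 0.77, SE 0.11, adjusted p 0.0153). ZNF579 had 27.9 CPM in W33, against 13.86 to 14 CPM in W19, W36 and W42, and ZNF428 had 73.3 CPM, against 42.3, 45.3 and 41.7 CPM.

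The 4 that fell most in W33 were ZNF569 (log2 -3.40, SE 0.89, adjusted p 0.0467), ZNF429 (log2 -1.39, SE 0.21, adjusted p 0.0158), ZNF224, a repressor first described on the aldolase A promoter (log2 -1.37, SE 0.24, adjusted p 0.0190), and ZNF708 (log2 -1.29, SE 0.25, adjusted p 0.0216), all with the KRAB pattern. ZNF429 had 4.58 CPM in W33, against 11.4, 12.8 and 11.8 CPM in W19, W36 and W42. The median log2 difference in W33 was -0.35 for members with the pattern and 0.53 for those without. It went with GC content in the members, with -0.77 at 40% GC or less and 0.73 above 60%, and in other protein-coding genes, with -0.43 and 0.49. The part of GC content in the W33 calls was not tested. The calls in W33 were all lost without W36 and without W42, most were lost without W19, and more members were called without P15. The share of all genes called was not obtained for these fits, so the changes are not a result about the members. The call of ZNF569 was lost whichever clone was left out (edgeR adjusted p 0.0503 to 0.117), and that of ZNF358 was lost in each case (0.0503 to 0.141) but without P15. ZNF358, ZNF428, ZNF429 and ZNF569 share exon bases with a gene of the other strand. ZNF224 shares 39.8% of its words with other genes and overlaps a gene of the other strand.

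In P22, 0 members were called, against 0.32% of all genes higher and 0.107% lower. In the fit without the filter on low counts, ZNF257 had a log2 difference of 4.94 in P22 and ZNF333 one of 1.25. ZNF257 had 5.58 CPM in P22, against 0.0332 to 0.309 CPM in the other P95H clones. Its mean of at least 1 CPM rests largely on P22, so a high level there is partly built into the choice. ZNF333 had 23.2 CPM in P22, against 9.84, 9.08 and 10.8 CPM in P9, P15 and P38, and it overlaps ADGRE2 on the other strand. Members were called in P22 when W33 or W42 was left out, in fits for which the share of all genes was not obtained. In the 6 other clones 0 members were called. Of all genes, 0.00485% were called higher in P15 and 0.0194% lower in W42, and 0% in P9, P38, W19 and W36.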

How the data were processed

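RNA-seq read counts per gene from 9 K562 libraries were used as the authors deposited them, 1 column of raw, unscaled counts per library. The submitters' processing notes name bcl2fastq, HTSeq 0.6.1p1, TopHat2 2.0.4 and the build GRCh37, and the deposited counts carry Ensembl 75 gene IDs per the file labels. The strand setting is not given in the sources used here and the kit named does not mark strand, so reads of overlapping genes cannot be told apart. Of the reads listed, 47.6 to 49.1% were in no gene, 5.06 to 6.06% aligned more than once and 2.24 to 2.55% were ambiguous. These stayed out of all tests, and 43.3 to 44.2% were counted in genes.

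Symbols, biotypes, gene order, exon lengths, GC content (of the longest transcript), finger and KRAB patterns, overlaps and shared 50-base words came from GENCODE 29 (GRCh38), matched by gene ID; genes carry no coordinates here because the counts use another build. Promoters came from RefSeq (GRCh38.p14). edgeR 4.0.16 (R 4.3.3; filterByExpr, TMM, robust quasi-likelihood F test, Benjamini-Hochberg over all genes tested, threshold 0.05) compared 4 P95H with 4 WT clones, the parental line with WT clones in a 3-group fit, and each clone with the others of its group. Log2 CPM used a prior count of 2. Alternatives were DESeq2 1.42.0, limma-voom (limma 3.58.1), other scalings, filters and limits, and clones left out. On simulated counts with 200 genes changed 4-fold, the P95H test recovered 95.5% of them among 17941 genes with 3.54% of its calls false. The single-clone test recovered 70% among 18168 with 9.09% false. The simulation held no smaller change and no shift shared between genes, such as the GC trend in W33. It therefore gives no recovery rate for differences like the members' median log2 difference of 0.24.

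The members and lists were chosen with earlier results of these data known. Named were ZNF304 and ZNF226; up to 12 members in each direction whose groups did not overlap, by log2 difference; up to 4 in each direction past the threshold per single-library comparison; the 5 highest, the 5 lowest and those around the limit of 1 CPM; ZNF274; corepressor genes without overlap; the 3 members most like ZNF304 and ZNF226; and the highest member per kb in the runs of at least 10. ZNF227, ZNF235, ZNF266, ZNF333, ZNF526, ZNF675 and the 8-fold members were named after their values were seen. No 2 libraries of the 36 pairs held identical values.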

Additional observations from a re-analysis of the deposited data

Results flagged for a closer look

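Among 84 groups of 4 clones (42 genes, P95H and WT clones separately), 10 held a clone whose distance from the nearest other clone took up more of the group's range than Dixon's 95% critical value for 4 samples allows. Chance flags about 1 in 20 groups, but the genes checked include those named for an 8-fold range or for their rise in W33, so the number of flags partly follows from that choice and is not set against chance. In the P95H clones, ZNF582 was low in P15 at 2.32 CPM (next clone 3.16 CPM), ZNF83 was high in P15 at 130.1 CPM (next 101.1 CPM), ZNF626 was high in P9 at 4.82 CPM (next 0.448 CPM) and ZNF257 was high in P22 at 5.58 CPM (next 0.309 CPM). In the WT clones, ZNF85 was high in W42 at 5.33 CPM (next 0.582 CPM) and ZNF607 low in W42 at 1.03 CPM (next 5.47 CPM). The other 4 were high in W33: ZNF121 at 120.4 CPM (next 78.2 CPM), ZNF579 at 27.9 CPM (next 14 CPM), ZNF581 at 58.8 CPM (next 32.0 CPM) and ZNF428 at 73.3 CPM (next 45.3 CPM).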

How the results depend on the processing

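The members' median log2 difference between P95H and WT clones kept its sign under each alternative run. It was 0.24 as reported, 0.19 to 0.34 with 1 clone left out and 0.17 with W33 and P22 left out. The count of members without overlap was 28 as reported. Of all genes of at least 1 CPM, 4.05% were then higher without overlap and 4.84% lower. With W33 and P22 left out the count was 45 (10.8% and 10.6% of those genes). With 1 clone left out it was 28 to 44 (4.84 to 7.34% and 5.52 to 8.20%). It was lower than 28 with the parental library counted as WT and at a limit of 2 CPM. The share of all genes was not obtained for these 2 settings, so neither count is set against a background. Among the 82 members with few shared words and no overlap with the other strand, the count was 15. That count used the same 4 and 4 clones, for which the background was 4.05% higher and 4.84% lower. The count called between P95H and WT clones was 0 by edgeR (0% of all genes), and also 0 with any 1 clone left out. It was 9 by DESeq2 (0.814% of all genes higher and 0.622% lower) and 2 by limma-voom (0.209% and 0.116%). The calls in P22 changed with the filter on low counts and with the clone left out, and those in W33 with the clone left out. For these single-clone fits the share of all genes called was not obtained, so the changes are not a result about the members. The causes of these shifts were not tested. ZNF358 missed the threshold in W33 under RLE scaling (adjusted p 0.0523). No paired analysis was possible because P95H and WT clones share no clone numbers. Members near the floor of 0.0865 to 0.133 CPM rest on few reads, and their folds are the least precise.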
